A study of Mus musculus with 4 samples.

Results

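The genes of sterol and fatty acid synthesis were followed in lung tissue that carried metastases of 4T1, a mouse triple-negative breast cancer (TNBC) cell line. They comprised 34 of the 56748 genes of the count table and were taken from the table by gene symbol, from a list made with earlier results of these data known, as the regulators of the sterol regulatory element-binding proteins (SREBPs), the enzymes of cholesterol synthesis, a sterol transfer protein and the enzymes of fatty acid synthesis, elongation and desaturation. All 34 genes had enough counts to be tested, together with 15167 genes in all.

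RNA was sequenced in bulk in 4 libraries, each taken as 1 mouse, 2 given saline and 2 given cmLumiOpto/PARPi. All were BALB/cJ female mice, 7 weeks old when 4T1-FLuc cells, which carry firefly luciferase, were injected into the tail vein, and both groups carried metastases before treatment began and were followed for 3 weeks. The treated mice received CD276 mAb-Exo-AAV, an antibody-tagged exosome-associated virus that delivers the cmLumiOpto gene under a cfos promoter, with the luciferin ViviRen and the PARP inhibitor olaparib (cmLumi-Olap in the sample labels), and the saline mice received none of these agents. No library here came from mice given only 1 of the agents, so their shares in a difference cannot be told apart. The model rests on 1 tumor cell line. The sample titles and the methods of the study name saline, whereas the treatment label names PBS, and the labels name tumor cells as the material where the methods name lung tissue with metastases.

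Sterol and fatty acid synthesis are controlled together by the SREBPs, transcription factors held in the endoplasmic reticulum. The escort protein Scap carries them to the Golgi for cleavage when sterols are scarce, and the Insig proteins retain Scap when sterols are abundant. SREBP-2 (Srebf2) acts mainly on cholesterol synthesis and SREBP-1 (Srebf1) mainly on fatty acid synthesis. In lung, alveolar type 2 cells make the lipids of surfactant, and tumor cells commonly synthesize fatty acids for their membranes.

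SREBPs bind sterol regulatory elements, often beside a CCAAT box bound by NF-Y, so the 250 bases upstream of the start site were examined for the letters TCACNCCAC and CCAAT on both strands. RefSeq promoter windows (GRCm38.p6) were given for 27 of the 34 genes, and the letters are a description, not a binding site. CCAAT occurred upstream of 21 of the 27 genes (77.8%), compared with 37.5% of the 27025 genes with a window. It was found in 10 of the 13 genes that were lower at an unadjusted p under 0.05 and in 11 of the 14 others. These counts used all 250 bases. In Cyp51, Idi1 and Msmo1, all among the lower genes, CCAAT lay only in bases inside the gene as annotated by GENCODE M21. Windows of starts within that gene were also counted, as in Acaca (without CCAAT) and Dhcr7 (with CCAAT only there). TCACNCCAC occurred in 1 of the 27 genes, Hmgcs1, and in 1.22% of all genes.

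Upstream sequences of 5 genes that were lower after cmLumiOpto/PARPi and of Mvk are printed 5′ to 3′ in the direction of the gene. Mvk had CCAAT 5 times, and its groups overlapped. The 5 lower genes all had CCAAT, whereas Acly, Acaca and Elovl6, also lower but not printed, had none in their windows. A link between the letters and the change was not tested. Bases inside the gene as annotated by GENCODE M21 were left off. Capitals mark CCAAT, its complement ATTGG and, in Hmgcs1, TCACCCCAC; in Fasn the 8 capitals CCAATTGG hold both forms overlapping. The windows are chr13:119690101-119690350 (+) for Hmgcs1, chr5:28071162-28071362 (+) for Insig1, chr1:169969242-169969455 (−) for Hsd17b7, chr10:76531355-76531587 (+) for Lss, chr11:120824548-120824797 (−) for Fasn and chr5:114444019-114444268 (+) for Mvk.
Hmgcs1: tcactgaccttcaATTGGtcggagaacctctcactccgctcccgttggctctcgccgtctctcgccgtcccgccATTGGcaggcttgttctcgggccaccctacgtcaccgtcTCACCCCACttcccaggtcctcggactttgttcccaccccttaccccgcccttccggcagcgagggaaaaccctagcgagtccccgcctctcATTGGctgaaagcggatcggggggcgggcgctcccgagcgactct
Insig1: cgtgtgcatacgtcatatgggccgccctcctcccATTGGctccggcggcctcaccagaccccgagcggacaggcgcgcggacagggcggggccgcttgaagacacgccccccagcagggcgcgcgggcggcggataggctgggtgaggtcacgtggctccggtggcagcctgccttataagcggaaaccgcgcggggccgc
Hsd17b7: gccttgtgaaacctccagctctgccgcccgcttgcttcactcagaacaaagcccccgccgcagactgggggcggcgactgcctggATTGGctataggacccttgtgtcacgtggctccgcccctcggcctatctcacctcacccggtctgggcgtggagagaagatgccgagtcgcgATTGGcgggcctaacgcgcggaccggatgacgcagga
Lss: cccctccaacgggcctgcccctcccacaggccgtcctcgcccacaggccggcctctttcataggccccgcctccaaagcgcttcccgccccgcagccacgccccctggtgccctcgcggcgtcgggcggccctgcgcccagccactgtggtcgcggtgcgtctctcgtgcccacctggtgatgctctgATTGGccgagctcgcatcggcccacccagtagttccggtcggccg
Fasn: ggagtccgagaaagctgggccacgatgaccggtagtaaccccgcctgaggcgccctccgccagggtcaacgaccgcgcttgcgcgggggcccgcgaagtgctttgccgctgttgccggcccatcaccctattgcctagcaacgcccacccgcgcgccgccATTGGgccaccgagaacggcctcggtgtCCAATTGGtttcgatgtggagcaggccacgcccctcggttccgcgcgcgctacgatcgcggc
Mvk: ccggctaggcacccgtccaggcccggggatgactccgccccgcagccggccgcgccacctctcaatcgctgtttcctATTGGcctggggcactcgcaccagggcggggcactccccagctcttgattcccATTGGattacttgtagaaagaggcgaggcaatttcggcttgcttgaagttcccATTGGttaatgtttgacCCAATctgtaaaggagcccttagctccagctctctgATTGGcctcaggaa

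The libraries held 15263375 to 16755228 counts on genes, so 3 counts, taken as the floor of detection for counting error only, corresponded to 0.172 to 0.204 CPM, the counts scaled to library size with TMM factors. Within the saline group, 29 of the 34 genes (85.3%) were higher in library 1 than in library 2, compared with 49.4% of all tested genes, and the median log2 ratio was 0.30, against −0.0047 over all genes. In the treated group, 16 of the 34 genes were higher in library 1 (50.2% of all genes), but sterol and fatty acid genes split in opposite ways. Treated library 1 was the higher in 4 of 18 sterol synthesis genes (median log2 ratio −0.27) and in 9 of 10 fatty acid genes (median 0.20). The CPM of the 34 genes summed to 4774 and 3605 in saline libraries 1 and 2, and to 2924 and 2895 in treated libraries 1 and 2. The lower saline library thus still exceeded both treated libraries. In bulk tissue, fewer cells of a type and less RNA per cell cannot be told apart.

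Most of the sterol and fatty acid genes were lower after cmLumiOpto/PARPi, and 0 of the 34 were higher in both treated libraries than in both saline libraries (27.4% of all tested genes were). In 21 of the 34 genes (61.8%) both treated libraries lay below both saline libraries, compared with 27.8% of all tested genes, and 13 genes overlapped. The log2 fold change was below 0 in 28 genes (82.4%, against 48.0% of all genes), with a median of −0.45 against 0.02 over all genes. In edgeR's quasi-likelihood test (Benjamini-Hochberg adjusted), 0 of the 34 genes had an adjusted p under 0.05, as had 0.0% of all tested genes, and the smallest adjusted p was 0.138. At an unadjusted p under 0.05, 17 genes were lower (50.0%, against 12.0% of all genes) and 0 higher (9.21% of all genes). Their adjusted p in that test ranged from 0.138 to 0.232. DESeq2 gave 8 genes an adjusted p under 0.05, all lower (23.5%, against 4.52% of all genes lower and 2.14% higher), and these were Srebf2, Insig1, Lss, Hsd17b7, Acly, Acaca, Fasn and Scd2.

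The count of 17 depended on which mice were compared. It was 8 without saline library 1 (23.5%, against 10.1% of all genes), when Srebf1, Srebf2 and Scd2 were among those no longer counted, and 11 without treated library 1 (32.4%, against 7.67%). Without saline library 2 it was 16 (47.1%, against 6.46%), and without treated library 2 it was 14 (41.2%, against 11.8%). The median log2 fold change of the 34 genes lay between −0.58 and −0.34 over these fits. Over the same fits the log2 fold change was −1.36 to −0.83 in Insig1, −1.27 to −0.76 in Lss and −1.75 to −1.31 in Hsd17b7. It was −0.93 to −0.55 in Acly, −1.10 to −0.69 in Acaca and −1.08 to −0.83 in Fasn. These genes were picked from these fits, and no such range was computed over all genes. Log2 fold changes also fell with gene length over all genes (Spearman's rho = −0.37, across genes, which are not independent replicates). After a correction for length in each library, 19 of the 34 genes (55.9%) were lower at an unadjusted p under 0.05, compared with 8.37% of all genes, and 16 of them were among the 17.

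**Figure D1:**
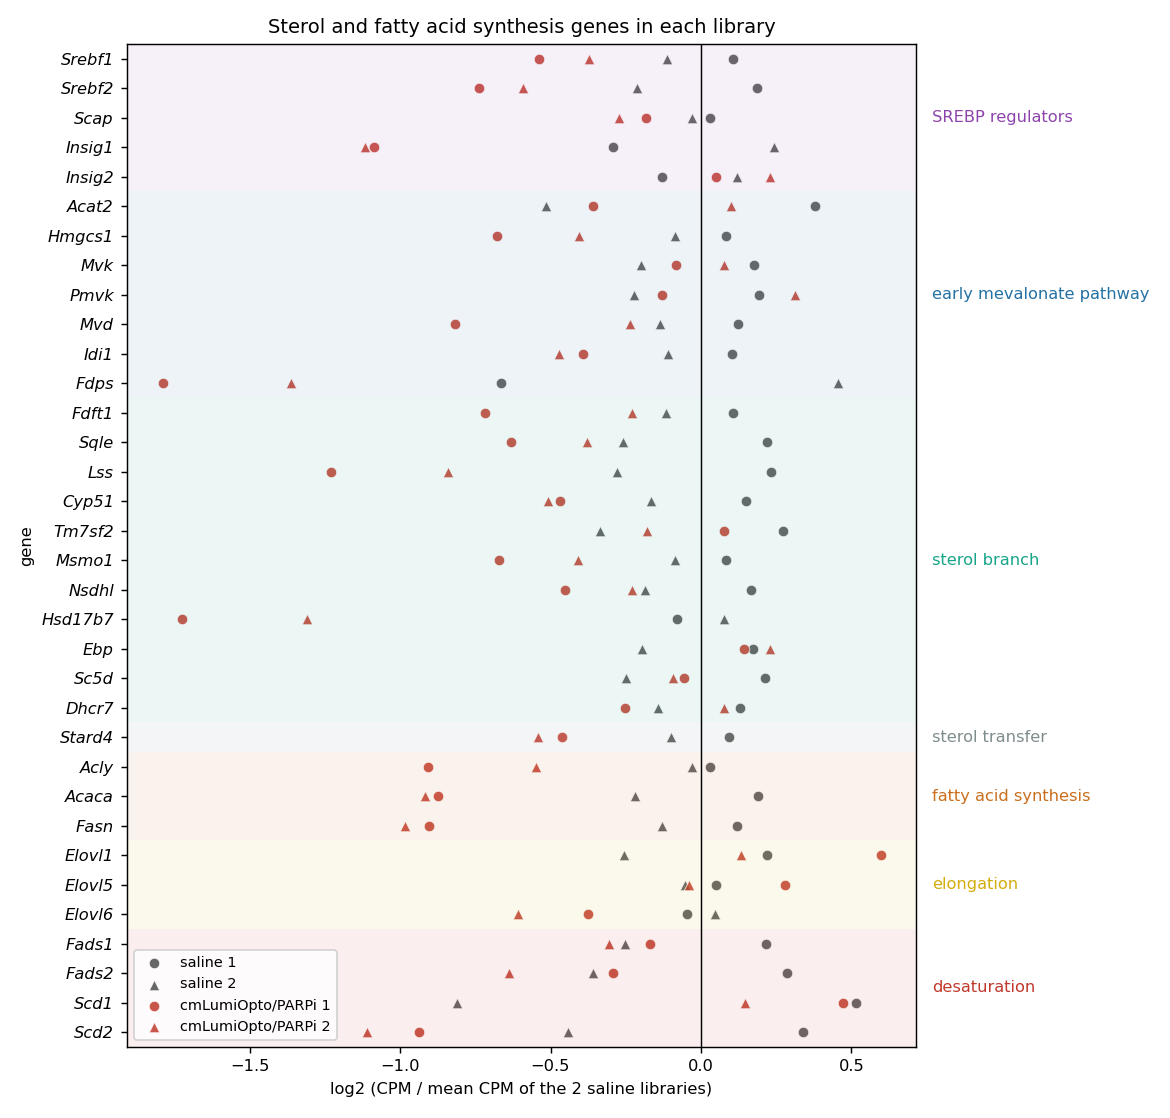
CPM of each of the 34 genes in each library, as log2 of the ratio to the mean of the 2 saline libraries, with genes grouped by role. Both treated libraries lie below both saline libraries in 21 genes, and the saline libraries are spread most widely in Scd1.

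The genes of fatty acid synthesis had the lowest median of the groups of more than 1 gene, at −0.90 (−0.70 after correction for gene length). All 3 (Acly, Acaca and Fasn) were lower at an unadjusted p under 0.05 (12.0% of all genes), and their summed CPM was 1154 and 1012 in saline and 579 and 622 after treatment. Fasn, which encodes fatty acid synthase (ENSMUSG00000025153, GRCm38 chromosome 11 from 120805846 to 120824547), had 633 and 533 CPM in saline libraries 1 and 2, and 312 and 294 CPM in treated libraries 1 and 2. The groups were well separated, and the treated libraries lay close together. The mean was 583 ± 70.5 CPM (SD, n = 2) in saline and 303 ± 12.1 CPM (SD, n = 2) after treatment, a log2 fold change of −0.94 (SE 0.16). The adjusted p was 0.138 in edgeR's quasi-likelihood test (Benjamini-Hochberg adjusted) and 2.02e-05 in DESeq2. After correction for gene length the log2 fold change of Fasn was −0.72 (SE 0.20).

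Acly, or ATP citrate lyase, makes the cytosolic acetyl-CoA that both sterols and fatty acids are built from (ENSMUSG00000020917, chromosome 11 from 100476353 to 100528000). Its level was 416 and 399 CPM in saline and 217 and 278 CPM after treatment. The saline mice were nearly alike and both were above the treated mice, with a log2 fold change of −0.72 (SE 0.17). Acaca, acetyl-CoA carboxylase 1 and the committed step of fatty acid synthesis (ENSMUSG00000020532, chromosome 11 from 84129672 to 84401651), had 106 and 79.7 CPM in saline and 50.7 and 49.1 CPM after treatment. The treated libraries were nearly equal and below both saline libraries. Its log2 fold change was −0.90 (SE 0.17), and −0.55 (SE 0.20) after correction for its length of 17.1 kb, the longest gene model of the 34. In edgeR's quasi-likelihood test (Benjamini-Hochberg adjusted) the adjusted p was 0.140 for Acly and 0.138 for Acaca, and in DESeq2 0.00935 and 0.00358.

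The desaturases differed among themselves. The enzymes Scd1 and Scd2 both place the first double bond in saturated fatty acids, but only Scd2 was lower in both treated mice. Scd2 (ENSMUSG00000025203, chromosome 19 from 44293674 to 44306864) had 1053 and 613 CPM in saline and 435 and 386 CPM after treatment. It was the most abundant of the 34 genes per length in saline, with a mean of 152 CPM per kb against 75.2 after treatment. The groups did not overlap although the saline libraries differed widely, and the log2 fold change was −1.02 (SE 0.28), with an adjusted p of 0.150 in edgeR's quasi-likelihood test (Benjamini-Hochberg adjusted) and 0.00634 in DESeq2. Without saline library 1 the log2 fold change was −0.59, no longer past an unadjusted p of 0.05, and without saline library 2 it was −1.37. Scd1 (ENSMUSG00000037071, chromosome 19 from 44394455 to 44407879) had 382 and 152 CPM in saline and 370.5 and 296 CPM after treatment. Saline library 2 was low and the other 3 libraries were similar, so the groups overlapped, and the log2 fold change of 0.32 (SE 0.42) was smaller than its error.

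The ratio of Scd1 to Scd2 counts within a library does not depend on depth. It was 0.362 and 0.248 in saline and 0.851 and 0.765 after treatment, so the ratio was higher in both treated libraries. The log2 ratio differed by 1.43, and the two-sided p of an exact permutation test over the libraries was 0.333, the smallest that 2 against 2 allows. The pair was chosen after its values were seen. Of 4 such pairs compared, all reached this p, Insig1 to Insig2 with a log2 difference of −1.22, Elovl6 to Elovl5 with −0.61 and Fads2 to Fads1 with −0.21. The sequences of the 2 genes are similar, and how reads that matched both were assigned is not given in the sources used here.

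Fads1 and Fads2, the desaturases of polyunsaturated fatty acids, overlapped between the groups. Fads1 had 152 and 109.9 CPM in saline and 117 and 106 CPM after treatment, a log2 fold change of −0.24, and Fads2 had 111 and 71.1 against 74.4 and 58.7 CPM, a log2 fold change of −0.45. In both genes saline library 1 was the highest of the 4. Among the elongases, Elovl6, which extends palmitate, had 84.4 and 89.9 CPM in saline and 67.1 and 57.2 CPM after treatment. The groups did not overlap, with a log2 fold change of −0.49 (SE 0.14) and an adjusted p of 0.165 in edgeR's quasi-likelihood test (Benjamini-Hochberg adjusted). Elovl5, an elongase of polyunsaturated fatty acids, had a log2 fold change of 0.13, and Elovl1, an elongase of very long chains, one of 0.38, and their groups overlapped. Elovl1 overlaps Cdc20, a cell cycle gene, in the table's annotation.

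**Figure D2:**
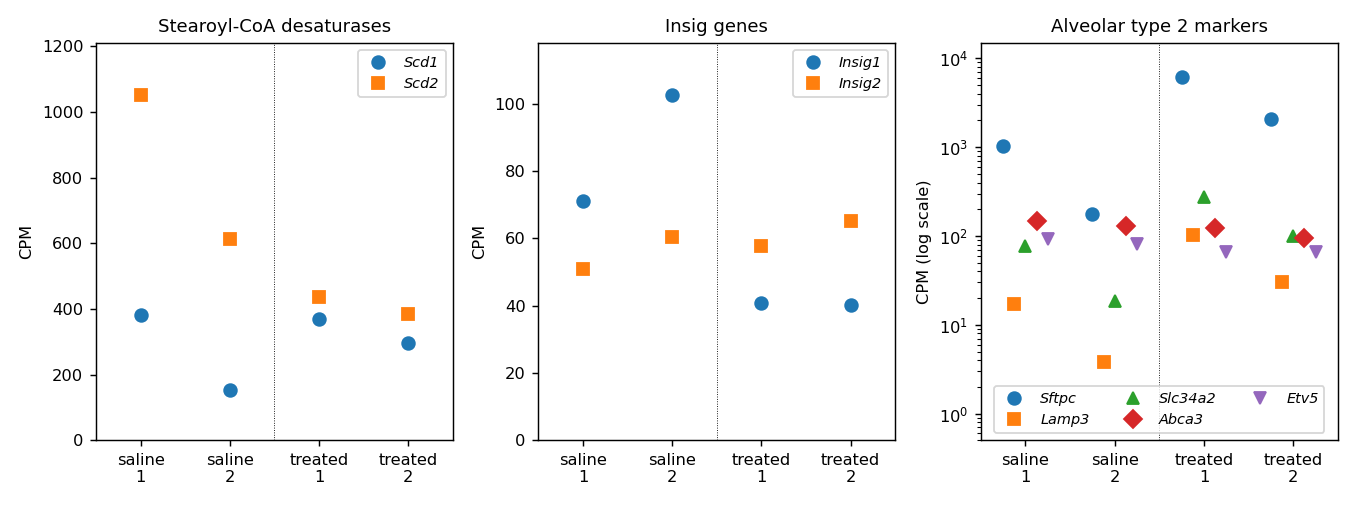
CPM in each library of Scd1 and Scd2 (left), Insig1 and Insig2 (middle), both on linear axes from 0, and 5 alveolar type 2 markers on a log axis (right, points shifted sideways for clarity). Scd2 and Insig1 are lower in both treated libraries while Scd1 and Insig2 overlap. Of the alveolar type 2 markers, Sftpc, Lamp3 and Slc34a2 are higher in both treated libraries, and Abca3 and Etv5 are lower in both.

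Among the SREBP regulators, 3 of 5 were lower at an unadjusted p under 0.05 (12.0% of all genes), namely Srebf1, Srebf2 and Insig1. Srebf2 (ENSMUSG00000022463, chromosome 15 from 82147181 to 82205379) had 270.5 and 205 CPM in saline and 143 and 158 CPM after treatment, and both treated mice were below both saline mice. Its log2 fold change was −0.66 (SE 0.18), with an adjusted p of 0.149 in edgeR's quasi-likelihood test (Benjamini-Hochberg adjusted) and 0.0286 in DESeq2. Srebf1 had 129.6 and 111 CPM in saline and 83.0 and 93.0 CPM after treatment, with no overlap and a log2 fold change of −0.45 (SE 0.15), and its DESeq2 adjusted p was 0.138. The gene overlaps Rai1 in the annotation. Rai1 was also lower in both treated libraries, with 1077 and 1212 counts in saline and 743 and 834 after treatment. The part of shared reads was not tested. Scap had 77.1 and 74.0 CPM in saline and 66.6 and 62.5 CPM after treatment, a small separation with a log2 fold change of −0.23 (SE 0.13) that did not pass at an unadjusted p under 0.05.

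The Insig genes also differed from each other. Insig1, itself a classical SREBP target (ENSMUSG00000045294, chromosome 5 from 28071363 to 28078662), had 71.0 and 103 CPM in saline and 40.9 and 40.1 CPM after treatment. The treated libraries were nearly equal and below both saline libraries. Insig1 was one of 5 genes of the 34 that were higher in saline library 2 than in saline library 1. Its log2 fold change was −1.10 (SE 0.20), with an adjusted p of 0.138 in edgeR's quasi-likelihood test (Benjamini-Hochberg adjusted) and 0.00120 in DESeq2. Insig2 had 50.9 and 60.5 CPM in saline and 57.7 and 65.3 CPM after treatment, which overlapped, with a log2 fold change of 0.14 (SE 0.16). The count ratio of Insig1 to Insig2 was 1.40 and 1.70 in saline and 0.709 and 0.614 after treatment, so the ratio was lower in both treated libraries (log2 difference −1.22, exact permutation two-sided p = 0.333, the smallest possible). This pair, too, was chosen after its values were seen.

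In the early mevalonate pathway, which makes isoprenoid units from acetyl-CoA, 3 of 7 genes were lower at an unadjusted p under 0.05 (12.0% of all genes) and the median log2 fold change was −0.43. The CPM of the 7 genes summed to 302 and 238 in saline and 194 and 241 after treatment, so the sums overlapped. Hmgcs1, the cytosolic HMG-CoA synthase (ENSMUSG00000093930, chromosome 13 from 119690379 to 119708260), had 112 and 99.6 CPM in saline and 66.1 and 79.8 CPM after treatment. The groups did not overlap, with a log2 fold change of −0.53 (SE 0.15). Idi1, isopentenyl diphosphate isomerase, had 34.9 and 30.1 CPM in saline and 24.8 and 23.4 CPM after treatment, also without overlap, with a log2 fold change of −0.43 (SE 0.17). In edgeR's quasi-likelihood test (Benjamini-Hochberg adjusted) the adjusted p was 0.160 for Hmgcs1 and 0.228 for Idi1.

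Fdps, farnesyl diphosphate synthase, was the least abundant of the 34 genes, with 28 and 56 counts in saline and 14 and 18 counts after treatment (1.76, 3.82, 0.806 and 1.08 CPM). Both treated libraries were lower, with a log2 fold change of −1.55 (SE 0.57), but Fdps overlaps the predicted gene Gm43738, listed at 0 in all 4 libraries, and how shared reads were assigned is not given in the sources used here. Its level is therefore uncertain. Without saline library 2, the higher of that group, the log2 fold change was −0.91 and no longer past an unadjusted p of 0.05. Without Fdps, 16 of 33 genes were lower at an unadjusted p under 0.05.

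Mvd, the decarboxylase that yields isopentenyl diphosphate, had 29.9 and 24.9 CPM in saline and 15.5 and 23.3 CPM after treatment, and its log2 fold change of −0.50 (SE 0.25) did not pass at an unadjusted p under 0.05. The groups overlapped in Acat2, a thiolase (62.6 and 33.7 CPM against 37.6 and 51.6 CPM), and in the kinases Mvk and Pmvk, with log2 fold changes between −0.11 and 0.11. Mvk had 27.4 and 21.1 CPM in saline and 22.9 and 25.6 CPM after treatment. Saline library 1 was the highest of the 4 in Acat2 and Mvk, and treated library 2 in Pmvk.

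In the sterol branch, from squalene to cholesterol, 5 of 11 genes were lower at an unadjusted p under 0.05 (12.0% of all genes), and in 7 of 11 both treated libraries lay below both saline libraries (27.8% of all genes). Hsd17b7, a sterol keto reductase that acts after lanosterol (ENSMUSG00000026675, chromosome 1 from 169949535 to 169969241), had 37.6 and 41.9 CPM in saline and 12.0 and 16.1 CPM after treatment. The libraries of each group were close and the groups far apart. The mean was 39.8 ± 3.03 CPM (SD, n = 2) in saline and 14.1 ± 2.85 CPM (SD, n = 2) after treatment, a log2 fold change of −1.50 (SE 0.21). The adjusted p was 0.138 in edgeR's quasi-likelihood test (Benjamini-Hochberg adjusted) and 1.74e-05 in DESeq2, and over all fits that left out a library the log2 fold change stayed between −1.75 and −1.31.

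Lss, lanosterol synthase, which forms the first sterol ring system (ENSMUSG00000033105, chromosome 10 from 76531588 to 76557138), had 48.9 and 34.3 CPM in saline and 17.7 and 23.2 CPM after treatment. Both treated libraries were lower, with a log2 fold change of −1.02 (SE 0.24), and −0.79 (SE 0.26) after correction for gene length. Sqle, squalene epoxidase, had 130.4 and 93.6 CPM in saline and 72.3 and 86.1 CPM after treatment, and its groups were separated only narrowly (log2 fold change −0.50, SE 0.20, and −0.26 without saline library 1). In edgeR's quasi-likelihood test (Benjamini-Hochberg adjusted) the adjusted p was 0.139 for Lss and 0.232 for Sqle, and the DESeq2 adjusted p was 0.0143 for Lss and 0.198 for Sqle.

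Cyp51, lanosterol demethylase, had 106 and 84.7 CPM in saline and 68.7 and 66.8 CPM after treatment. Msmo1, the methylsterol oxidase of a later step, had 103 and 91.2 against 60.8 and 73.0 CPM. Neither gene overlapped between the groups, and the log2 fold changes were −0.49 (SE 0.15) for Cyp51 and −0.53 (SE 0.15) for Msmo1. Fdft1, squalene synthase, and Nsdhl, a sterol dehydrogenase, were also lower in both treated mice, with log2 fold changes of −0.45 and −0.34 that did not pass at an unadjusted p under 0.05. Fdft1 overlaps Ctsb, which held 18021 to 27595 counts per library, Cyp51 overlaps Akap9 and Tm7sf2 overlaps Vps51 in the annotation. Akap9 was lower in both treated libraries, with 1167 and 1226 counts in saline and 1050 and 798 after treatment. Ctsb was higher in both (18561 and 18021 against 27595 and 24421), and Vps51 overlapped between the groups. The part of shared reads was not tested. Whether the counting used strand is not given in the sources used here.

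The other 4 genes of the branch, Tm7sf2, Ebp, Sc5d and Dhcr7, overlapped between the groups. Dhcr7, which makes cholesterol from its last precursor in one route, had 41.6 and 34.4 CPM in saline and 32.0 and 40.1 CPM after treatment, and Ebp, the sterol isomerase, had 62.6 and 48.5 against 61.4 and 65.2 CPM. The log2 fold changes of Tm7sf2, Ebp, Sc5d and Dhcr7 lay between −0.08 and 0.19. Stard4, a sterol transfer protein and known SREBP-2 target, had 58.8 and 51.4 CPM in saline and 40.0 and 37.9 CPM after treatment. Its libraries were close within each group and did not overlap, with a log2 fold change of −0.50 (SE 0.15) and an adjusted p of 0.166 in edgeR's quasi-likelihood test (Benjamini-Hochberg adjusted).

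**Figure D3:**
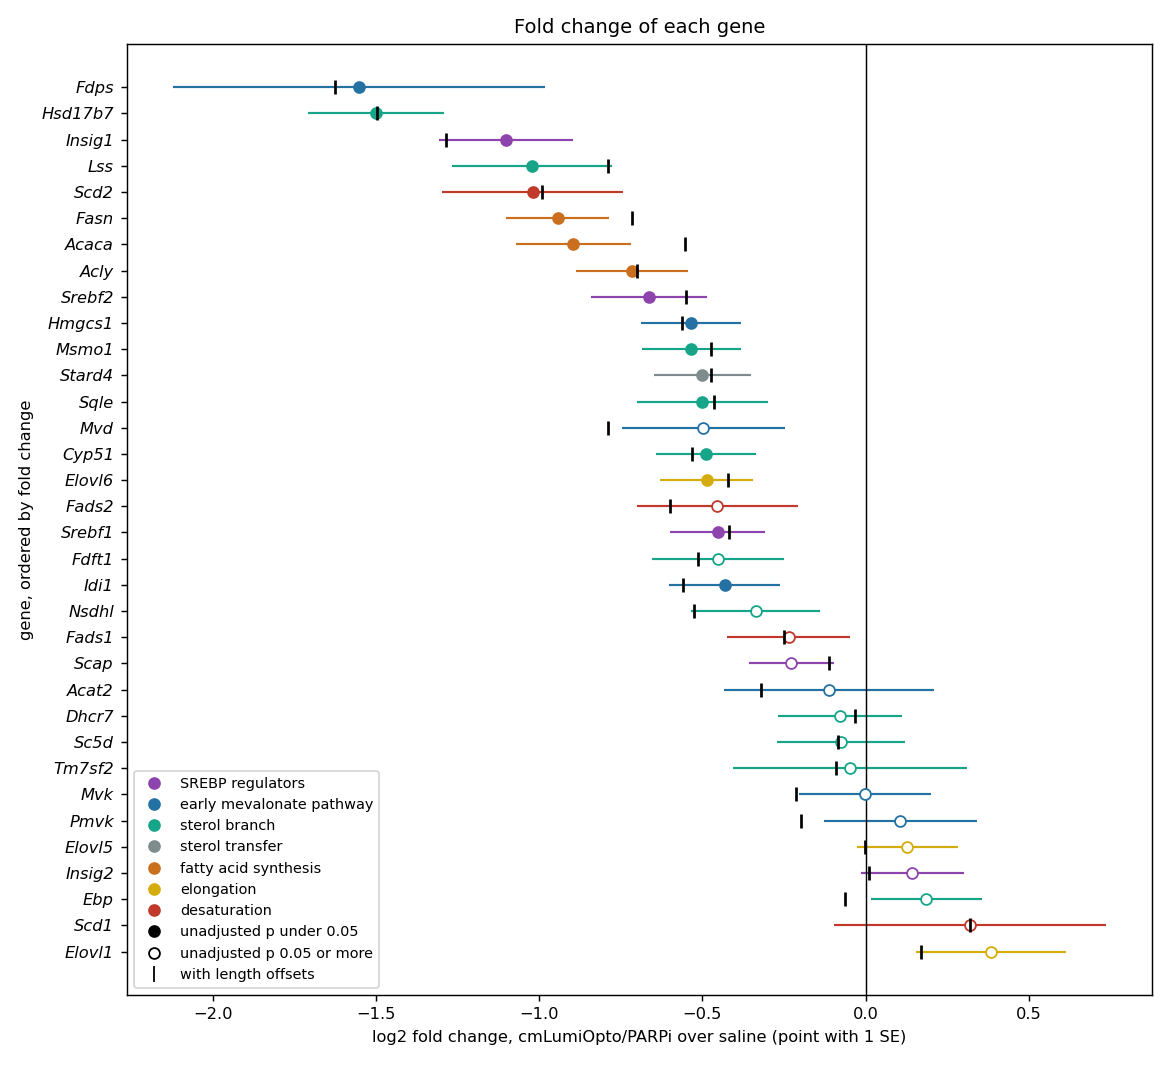
Log2 fold change of each gene, cmLumiOpto/PARPi over saline, with 1 SE from edgeR, colored by role; filled points have an unadjusted p under 0.05 and black ticks give the value after correction for gene length. Values run from −1.55 (Fdps) to 0.38 (Elovl1), and all 17 filled points lie below 0.

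Other genes of lipid metabolism did not share the direction of the 34. Of 35 such genes, 33 were tested, with a median log2 fold change of 0.01, and at an unadjusted p under 0.05 there were 4 lower and 4 higher (against 12.0% and 9.21% of all genes). The lower genes were Mbtps1 and Mbtps2, the proteases that release the SREBPs in the Golgi, Acsl4, an acyl-CoA synthetase, and Lpin1, a phosphatidate phosphatase. Mbtps1 had 349 and 427 CPM in saline and 262 and 299 CPM after treatment, and Mbtps2 had 67.7 and 65.9 against 48.1 and 50.8 CPM. Neither overlapped between the groups. After correction for length, only Lpin1 of the 4 lower genes passed at an unadjusted p under 0.05. Lpin1 had 20.0 and 21.5 CPM in saline and 7.43 and 11.0 CPM after treatment, a log2 fold change of −1.17.

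The higher genes were Nr1h3 (LXR alpha), a sterol sensor, Npc2, which exports lysosomal cholesterol, Thrsp, a lipogenic factor, and Lpcat1, which makes surfactant phosphatidylcholine. Thrsp did not pass at an unadjusted p under 0.05 after correction for length. Npc2 had 642 and 573 CPM in saline and 1153 and 879 CPM after treatment, and Lpcat1 had 100.3 and 77.8 against 182 and 128 CPM. Both treated libraries exceeded both saline libraries in these genes. Their log2 fold changes were 0.74 and 0.80, and the adjusted p was 0.145 and 0.156 in edgeR's quasi-likelihood test (Benjamini-Hochberg adjusted).

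**Figure D4:**
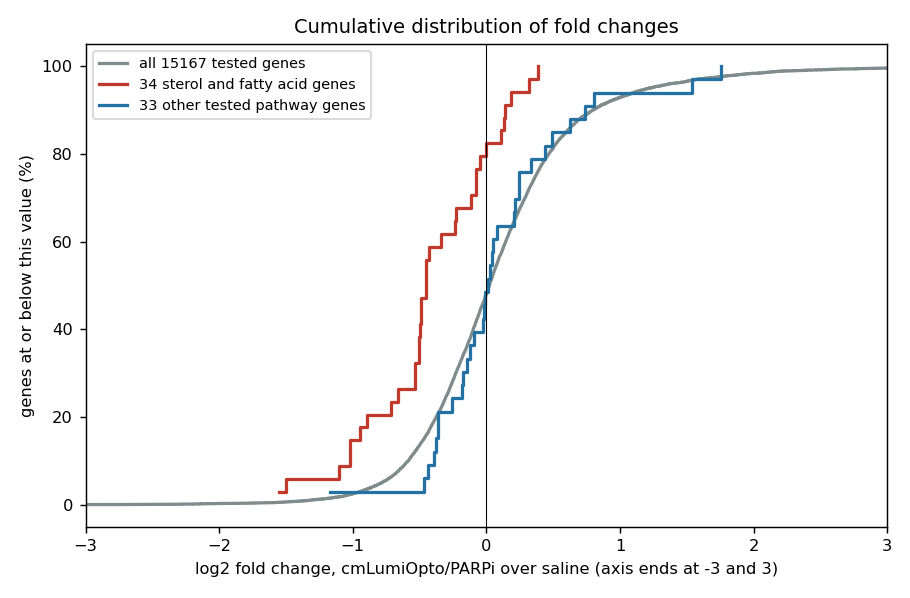
Cumulative share of genes (%) by log2 fold change, cmLumiOpto/PARPi over saline, for all 15167 tested genes, the 34 sterol and fatty acid genes and the 33 other tested genes of lipid metabolism. The curve of the 34 genes lies to the left, with a median of −0.45 against 0.02 and 0.01.

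Markers of lung epithelium were mostly higher in the treated libraries, where the sterol and fatty acid genes were lower. Of 8 alveolar type 2 markers, 6 were higher and 1 lower (Etv5) at an unadjusted p under 0.05 (9.21% and 12.0% of all genes), and their summed level was 1757 and 525 CPM in saline and 8138 and 2946 CPM after treatment. Sftpc, surfactant protein C, had 1019.9 and 176 CPM in saline and 6153 and 2092 CPM after treatment. Abca3, the surfactant lipid transporter, had 147 and 129 CPM in saline and 125 and 94.0 CPM after treatment. It was thus lower in both treated libraries, but not at an unadjusted p under 0.05. The 3 club cell markers, summed, had 1149 and 79.9 against 5678 and 2976 CPM, and all 3, with all 3 ciliated cell markers, were higher at an unadjusted p under 0.05 (9.21% of all genes). Their part in the levels of the 34 genes was not tested.

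The tumor epithelium and proliferation markers were compared in the same way. The 4 markers of mammary tumor epithelium (Krt8, Krt18, Krt14 and Epcam) summed to 2284 and 2769 CPM in saline. They summed to 1961 and 3106 CPM after treatment, which overlapped. At an unadjusted p under 0.05, 0 of 4 passed (12.0% of all genes were lower and 9.21% higher). Krt8 and Krt18 were abundant in every library. The 3 proliferation markers (Mki67, Top2a and Ccnb1) summed to 862 and 869 CPM in saline and 560.0 and 731 CPM after treatment. Mki67 alone of the 3 was lower at an unadjusted p under 0.05 (281 and 302 against 166 and 206 CPM), as were 12.0% of all genes. The part of proliferation in the levels of the 34 genes was not tested. Endothelial markers (3 genes) summed to 345 and 280 CPM in saline and 480 and 298 CPM after treatment, and alveolar macrophage markers (5 genes) to 126 and 432 against 101 and 139 CPM. Of the 5 macrophage markers, Chil3, the most abundant in CPM, had a log2 fold change of −1.43 and the other 4 were above 0 (median of the 5 0.67). At an unadjusted p under 0.05, 1 was higher (Ear2) and 0 lower (9.21% and 12.0% of all genes). The defining markers of adipocytes and hepatocytes, cells rich in these enzymes, were at or near 0: the 6 adipocyte markers summed to 0.204 to 2.05 CPM, with Lep at 0 in all libraries, and the 3 hepatocyte markers to 0.0576 to 0.188 CPM.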

How the data were processed

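Reads were aligned with HISAT2, and the authors deposited raw read counts for each gene, without scaling, with gene positions and lengths. The methods name GRCm38 and the labels' processing notes mm39. Of the table's genes found in GENCODE M21 (GRCm38), 2.76% had the same position, so coordinates are from M21 by Ensembl identifier. Poly-A RNA was sequenced, and the labels leave strand use open. Genes were tested with edgeR 4.0.16 (TMM, filterByExpr with a minimum count of 10, quasi-likelihood test, Benjamini-Hochberg adjustment over all 15167 tested genes, threshold 0.05). Standard errors are the log2 fold change divided by the square root of F. CPM used TMM factors, and CPM per kb used the table's gene lengths. Length was corrected by a loess fit (span 0.5) of each library's log2 CPM (prior count 2) deviation on log2 length. Alternatives were DESeq2 1.42.0, DESeq2's size factors, no filter, edgeR's legacy option off, the replicate number as a block, and leaving out each library. The scripts were tested on simulated data.

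The genes and marker lists were chosen with earlier results of these data known. All 34 genes are accounted for: those at an unadjusted p under 0.05 with the value in every library, the others with a fold change or range. Each library was taken as 1 mouse, as the labels number the samples. Where they were not separate animals, p-values measure only the spread between these libraries.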

Additional observations from a re-analysis of the deposited data

How the results depend on the processing

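With all libraries, 0 of all genes and 0 of the 34 genes had an adjusted p under 0.05 in edgeR. DESeq2 gave 1011 and 8, no filter on low counts 2000 and 10, the replicate block 1822 and 8, and length correction with the replicate block 1234 and 8, while leaving out a library gave 0 to 31 and 0. The 8 genes were the same in DESeq2 and with the block, but not with length correction and the block. In that edgeR quasi-likelihood fit (Benjamini-Hochberg adjusted), Srebf2, Lss and Acaca did not pass (adjusted p 0.073, 0.080 and 0.073). Hmgcs1 and Cyp51 were among those that did (adjusted p 0.049 and 0.048). Libraries with the same number came from different groups, and the labels do not say what else they share. Across genes, Spearman's rho of their deviations was 0.30. The count of higher genes at an unadjusted p under 0.05 went from 0 to 1 without the filter and to 1 with the replicate block, and was 0 to 2 on leaving out a library. The count of lower genes went from 17 to 8 to 16 on leaving out a library, 8 without saline library 1 and 11 without treated library 1. The median log2 fold change of the sterol genes, −0.44, was −0.23 without treated library 1 and −0.30 without saline library 1, and that of the fatty acid genes, −0.47, ranged from −0.61 to −0.33 on leaving out a library.

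The alternative fits reuse the counts from which the 17 lower genes were chosen, so a kept direction was partly set in advance. The share of all genes that kept their direction was not computed. The 17 lower genes were below 0 in every fit, and 24 of the 34 kept 1 direction in all 11 alternatives. The others had log2 fold changes near 0 or libraries far apart. Mvk was 0.0018 in DESeq2, 0.0020 with its size factors and 0.0068 with the block. With length correction, and with the block added, Pmvk was −0.20 and −0.22, Ebp −0.065 and −0.063, and Elovl5 −0.0017 and −0.0058. Leaving out a library gave Acat2 −0.50 to 0.39, Mvk −0.19 to 0.18, Pmvk −0.15 to 0.31, Tm7sf2 −0.33 to 0.27, Ebp −0.0017 to 0.37, Sc5d −0.30 to 0.16, Dhcr7 −0.27 to 0.074, Elovl5 −0.040 to 0.26, Fads1 −0.47 to 0.0022 and Scd1 −0.21 to 1.12. The cause was not tested. Depth limits Fdps (14 to 56 counts per library) and Tm7sf2 (61 to 101 counts) in particular.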
